A study of Mus musculus with 12 samples.

Results

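The genes described here are 9 enzymes of myelin galactolipid and sphingolipid synthesis: Sptlc2, Degs1, Cers2, Elovl1, Elovl7, Fa2h, Ugt8a, Gal3st1 and Sgms1. They were picked as enzymes of this pathway, with earlier results of these data known, and found by gene name in lists of H4K8ac peaks in which the authors gave each peak to a gene. They are 9 of the 23433 genes with a peak in any library. H4K8ac is acetylation of lysine 8 of histone H4, a mark found at active promoters and enhancers. It was mapped by ChIP-seq, the sequencing of DNA that an antibody pulls down with its chromatin, in primary oligodendrocyte progenitor cells (OPCs) from mouse forebrain, with 3 biological replicates at postnatal day 5 (neonatal) and 3 at postnatal day 60 (adult). Both ages carried the PdgfrαH2BEGFP reporter used for sorting, a nuclear green fluorescent protein under the control of Pdgfra, so a sorted cell is known only by that reporter. Pooling of animals within a replicate and their sex are not given in the sources used here, and the 6 input samples were not analysed here. The peak lists held 434 peaks of these genes among 269580, and the authors' table of sites that differed between the ages held 75 of its 43888 sites at them.

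Sphingolipid synthesis starts when serine palmitoyltransferase, of which Sptlc2 is a subunit, joins serine to an activated fatty acid. Ceramide synthases such as Cers2 add a second fatty acid, which the elongases Elovl1 and Elovl7 can lengthen beforehand and Fa2h can hydroxylate, and the desaturase Degs1 completes ceramide. Ugt8a puts galactose on ceramide to make galactosylceramide and Gal3st1 sulfates it to sulfatide, the galactolipids in which myelin is rich, whereas Sgms1 turns ceramide into sphingomyelin. Oligodendrocytes make these lipids in quantity when they form myelin, which progenitors do not yet do.

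Promoter sequences are printed for 4 members because their peaks lay differently around the gene start. Each is the 250 bases before the outermost RefSeq start (GRCm38.p6), read along the gene's strand, and capitals mark matches to the motifs searched on either strand. Ugt8a (chr3:125938653-125938902, minus strand) is shown for a promoter with no neonatal peak in replicate 1, Elovl7 (chr13:108214154-108214403, plus strand) for a promoter partly or wholly under a peak in every library, and Gal3st1 (chr11:3983386-3983635, plus strand) and Sptlc2 (chr12:87388356-87388605, minus strand) for promoters whose peaks stopped on both sides of the window. All 4 windows also lie before the start that the authors' lists give the gene.
Ugt8a: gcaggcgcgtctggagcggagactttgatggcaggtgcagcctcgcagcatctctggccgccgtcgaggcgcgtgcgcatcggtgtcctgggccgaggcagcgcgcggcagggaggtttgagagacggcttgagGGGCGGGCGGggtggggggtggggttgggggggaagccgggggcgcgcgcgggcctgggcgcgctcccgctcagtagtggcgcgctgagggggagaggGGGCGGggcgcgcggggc
Elovl7: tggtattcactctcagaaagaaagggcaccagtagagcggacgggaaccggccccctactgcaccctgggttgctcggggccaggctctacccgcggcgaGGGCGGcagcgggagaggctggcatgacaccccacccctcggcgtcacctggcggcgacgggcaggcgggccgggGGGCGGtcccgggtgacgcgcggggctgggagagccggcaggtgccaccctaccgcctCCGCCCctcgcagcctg
Gal3st1: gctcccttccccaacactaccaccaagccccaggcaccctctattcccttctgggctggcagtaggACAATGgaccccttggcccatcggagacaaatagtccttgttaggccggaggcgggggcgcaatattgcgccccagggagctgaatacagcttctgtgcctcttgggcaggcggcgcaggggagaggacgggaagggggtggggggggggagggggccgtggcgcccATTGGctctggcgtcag
Sptlc2: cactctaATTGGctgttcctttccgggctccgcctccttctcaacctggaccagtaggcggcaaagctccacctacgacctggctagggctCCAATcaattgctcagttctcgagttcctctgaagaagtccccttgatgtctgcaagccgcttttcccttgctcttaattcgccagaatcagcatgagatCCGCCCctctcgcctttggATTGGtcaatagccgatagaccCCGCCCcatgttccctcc

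The Elovl7 window lay under peaks for 174, 250 and 115 of its 250 bases in neonatal replicates 1, 2 and 3 and for all 250 in each adult replicate. The Ugt8a window was covered for 0, 28 and 0 bases in the neonatal and 110, 119 and 250 in the adult replicates, so its cover was larger in every adult library. The same held for the median RefSeq promoter with a peak within 1000 bp of the start. Its cover was 0, 55 and 0 bases in the neonatal and 155, 132 and 250 in the adult libraries. The Sptlc2 window had 0 covered bases in all 6 libraries. In the adult libraries, peaks ended on either side of it and left 384, 350 and 334 bases between them. Gal3st1 had at most 18 covered bases in any library, and the stretch between its adult peaks measured 244, 279 and 249 bases. A wholly uncovered window was common: of all RefSeq promoters with a peak within 1000 bp of the start, 20.6%, 22.5% and 16.9% had none of the 250 bases covered in the adult libraries, and 64.1%, 38.6% and 65.6% in the neonatal libraries.

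Promoters of 8 of the 9 members were in the RefSeq table. Fa2h was not. For Cers2, Degs1 and Sgms1 the authors' lists start the gene further upstream, so these 3 windows lie inside the listed gene. The 8 windows had a median GC content of 70.8%, against 52.4% over all 32851 promoters of the same length. The GC box GGGCGG was present in 6 of the 8, including 3 matches in Ugt8a, of which the first 2 overlap, 3 in Elovl7 and 2 in Sptlc2, against 32.7% of all promoters. The CCAAT box was present in 4 of the 8, with 3 matches in Sptlc2, against 33.8%. The E-box CACGTG was present in 2, Cers2 and Degs1, against 6.02%, and the E-box CAGCTG in 2, Degs1 and Sgms1, against 13%. Of the SOX core motifs, ACAATG was present in Gal3st1 alone, against 10.7%, and ACAAAG in none, against 16.5%. The E-box CAGATG (14.4%) and the MYRF core CTGGCAC (4.19%) were in none of the 8. Matches of GGGCGG with CCAAT overlapped in Elovl1. These are letter matches in a short window and were not related to binding of any factor.

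The libraries differed in the whole of their peak lists. The neonatal lists held 9097, 31189 and 7353 peaks, so neonatal replicate 2 stood apart, and the adult lists 72278, 72661 and 77002. Reads per library were not analysed here, so the depth behind a missing peak is unknown and a missing peak says only that none was called. The main counts and sums over the 9 genes are therefore also given for the 7353 strongest peaks of each library by the authors' p-value, the length of the shortest list. Values for cover of gene length, merged regions and marker bases rest on the whole lists. The OPC markers (Pdgfra, Cspg4, Sox10, Olig1, Olig2 and Sox6) all had a promoter peak in each of the 6 libraries, and their summed bases were 4483 to 32865 in the neonatal and 58429 to 85345 in the adult libraries. Among the strongest 7353 peaks, 6, 5 and 6 of these 6 had a promoter peak in the neonatal and 3, 3 and 4 in the adult libraries. Pdgfra, the gene that drives the reporter, had a promoter site higher in neonatal cells, with a log2 fold change of -1.23 (adjusted p = 0.027) in the authors' deposited table. Each of the other 5 OPC markers had a site higher in adult cells and none higher in neonatal cells. For Cspg4, Sox10, Olig1 and Olig2 the promoter site with the lowest p was higher in adult cells. Its log2 fold change was 3.28, 1.82, 1.83 and 1.49 in the authors' deposited table. Markers of mature oligodendrocytes (Mog, Mag, Mobp, Opalin and Mbp) moved with age: 1 of 5, Mbp, had a promoter peak in each neonatal library and 5 of 5 in each adult library, and their summed peak bases were 435 to 5844 in the neonatal and 67066 to 85131 in the adult libraries. Mag, Mobp and Opalin had 0 neonatal peak bases. Of 6 microglial markers, only Cx3cr1 had a promoter peak in adult libraries, and none did in neonatal libraries, with summed bases of 0 and 3729 to 4100. Promoter peaks were found at 0 to 4 of 6 neuronal markers in neonatal and 3 to 5 in adult libraries (0 to 2222 and 7116 to 10714 bases), at 1 to 4 and 0 to 3 of 6 astrocyte markers (291 to 4644 and 2459 to 5163 bases), and at 0 to 2 and 2 to 3 of 6 fibroblast or endothelial markers (0 to 2475 and 4866 to 6074 bases). The part of these marker differences in the results below was not tested, and in a bulk of sorted cells more marked cells and more of the mark per cell cannot be told apart.

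Promoters of most of the enzymes already carried H4K8ac in neonatal cells. A promoter peak is a peak that the authors annotated within 3000 bp of a transcription start. Such a peak was found for 7, 9 and 6 of the 9 genes in neonatal replicates 1, 2 and 3 and for 9 in each adult replicate, a mean of 7.33 ± 1.53 against 9 (SD, n = 3). Over all genes the shares were 27.2%, 58.5% and 24.0% in the neonatal and 66.2%, 64.5% and 66.1% in the adult libraries. Gal3st1, Cers2, Elovl7, Sptlc2 and Sgms1 had a promoter peak in all 6 libraries, 5 of 9 beside 17.1% of all genes. The 9 of 9 with a promoter peak in every adult library stand beside 57.9% of all genes. None had a promoter peak in every adult and no neonatal library, beside 9.60% of all genes. Without neonatal replicate 2 that count was 1, Elovl1.

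Among the 7353 strongest peaks of each library, 6, 7 and 6 of the 9 genes had a promoter peak in the neonatal and 9 in each of the adult libraries. The matching shares of all genes were 23.6%, 27.0% and 24.0%, then 26.0%, 23.1% and 23.9%, so lists of equal length gave about the same share of all genes at both ages. All 9 were among the strongest in every adult library, beside 17.3% of all genes. Elovl1 was in this set in every adult and no neonatal library, 1 of 9 beside 1.72% of all genes. Its best promoter peak in neonatal replicate 2 ranked 7391, just outside the limit.

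**Figure D1:**
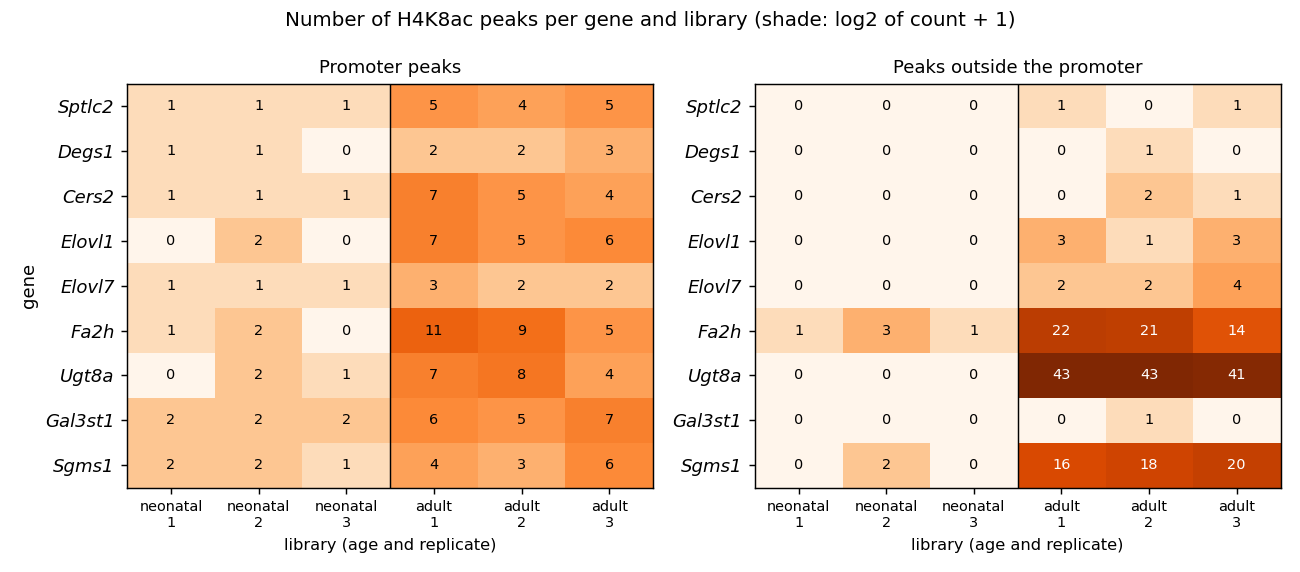
Number of promoter peaks (left) and of all other peaks (right) assigned to each of the 9 enzyme genes (rows) in each of the 6 libraries (columns), with the count printed in each cell and the shade on a log2(count + 1) scale. Promoter peaks were present for 6 to 9 genes in the neonatal libraries, whereas peaks outside promoters numbered 1, 5 and 1 in neonatal and 87, 89 and 84 in adult libraries.

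Over the whole lists, which differ in length, peaks outside promoters were many in adult and few in neonatal cells, and most belonged to Ugt8a, Fa2h and Sgms1. The 9 genes together had 1, 5 and 1 such peaks in the neonatal libraries and 87, 89 and 84 in the adult libraries. These peaks made up 4.42%, 19.0% and 5.28% of the genes' peak bases in the neonatal libraries and 57.5%, 52.5% and 58.2% in the adult libraries. Over all genes the same shares were 13.1%, 25.4% and 9.69%, then 47.6%, 49.98% and 51.6%. The larger adult share outside promoters was thus found across the genome as well as at these enzymes. Among the strongest 7353 peaks, only Fa2h had peaks outside promoters, 1, 0 and 1 in the neonatal and 2, 4 and 3 in the adult libraries, and Ugt8a and Sgms1 had none at either age. Over all genes, the strongest peaks outside promoters numbered 873, 434 and 822 in the neonatal and 710, 1233 and 1117 in the adult libraries, so the ages overlapped.

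Sptlc2 (chr12:87305058-87388355, minus strand), the serine palmitoyltransferase subunit at the entry to the pathway, had 1 promoter peak in each neonatal library and 5, 4 and 5 in the adult libraries. Its peaks covered 365, 424 and 280 bases in neonatal replicates 1, 2 and 3 and 2481, 1807 and 3709 in the adult replicates. The ages did not overlap. Intronic peaks appeared as 1 peak each in adult replicates 1 and 3. Beyond the peaks at the gene start, the authors' deposited table listed a pair of sites inside the gene, chr12:87341309-87341708 and chr12:87341993-87342392, both classed as promoter, with log2 fold changes of 4.64 and 5.05 towards adult cells. No neonatal list had a peak at either of them.

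Degs1 (chr1:182275772-182282804, minus strand), the desaturase that completes ceramide, had the fewest adult bases. It had 442, 522 and 0 bases in the neonatal and 1709, 1051 and 1810 in the adult libraries, nearly all at the promoter, where neonatal replicate 3 had no peak. A single peak outside the promoter was listed, in adult replicate 2. The promoter peak ranked 3669, 4024 and 3653 in the adult lists, and 4404 and 4310 in neonatal replicates 1 and 2.

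Cers2 (chr3:95314791-95323599, plus strand), the ceramide synthase that uses very long acyl chains, differed in the width of its peaks. Each neonatal library had 1 promoter peak, of 813, 992 and 626 bases. The widest peaks in the adult libraries measured 3607, 5772 and 10142 bases. Counted by position, whichever gene they were given to, peaks covered 9.23%, 11.2% and 7.11% of the gene's length in the neonatal libraries and 93.6%, 93.6% and 96.3% in the adult libraries, where the median gene had 1.9%, 1.75% and 2.48%. Its best promoter peak was strong at both ages, ranking 565, 581 and 506 in the neonatal and 418, 311 and 188 in the adult lists. The site with the highest log2 fold change of all 75, 6.46 in the authors' deposited table, lay just past the end of this gene (chr3:95323739-95324138) and overlapped no neonatal peak. The site at the gene start had a log2 fold change of 1.55 in the authors' deposited table.

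Elovl1 and Elovl7 are elongases of long-chain fatty acids. Elovl1 (chr4:118428093-118432953, plus strand) had no peak in neonatal replicates 1 and 3, 1024 bases in neonatal replicate 2 and 3060, 3167 and 5129 in the adult libraries. Elovl7 (chr13:108214404-108285683, plus strand) had 1 promoter peak in each neonatal library, and 462, 1076 and 518 bases against 2691, 3589 and 4681. Both genes had more bases in every adult library, and both had few peaks outside the promoter in adult cells, 3, 1 and 3 for Elovl1 and 2, 2 and 4 for Elovl7. A site given to Elovl7 (chr13:108191659-108192058, classed as intron, upstream of the gene start) had a log2 fold change of 5.85 in the authors' deposited table. The sites at the gene starts had log2 fold changes of 2.24 for Elovl1 and 1.62 for Elovl7 in the authors' deposited table.

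Fa2h (chr8:111345135-111393824, minus strand), which makes the hydroxylated fatty acids of myelin galactolipids, carried H4K8ac over most of its length in adult cells. Peaks covered 0.908%, 5.08% and 0.329% of the gene in the neonatal libraries and 64.7%, 69.9% and 83.6% in the adult libraries. In bases, its assigned peaks came to 442, 2695 and 160, then 31840, 34624 and 41580. Each step of 10 kb from the gene start held 3231 or more peak bases in every adult library, and between 20 and 30 kb it held 7427, 9012 and 9837 in the adult and 0 in each neonatal library. Neonatal replicate 3 had no Fa2h promoter peak but did have an intronic peak (chr8:111375679-111375838), and neonatal replicate 2 had a peak over the same place (chr8:111375510-111375975). In adult replicates 2 and 3 the strongest peak outside the promoter lay over this place and spanned 2645 and 5333 bases. Among the 7353 strongest peaks of each library, its bases were 442, 0 and 160 against 6955, 11566 and 22737.

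Ugt8a (chr3:125865271-125938619, minus strand), which makes galactosylceramide, had the most peaks of the 9. It had 0, 2 and 1 peaks in neonatal replicates 1, 2 and 3, all at the promoter, and 50, 51 and 45 in the adult replicates. Of the adult peaks, 43, 43 and 41 lay outside promoters, 27, 28 and 22 of them in introns and 16, 15 and 14 between genes. The bases under its peaks numbered 0, 858 and 240 in the neonatal libraries and 27947, 28313 and 49816 in the adult libraries. The peaks inside the gene were dense in its later part: the 10 kb from 40 to 50 kb after the start held 4699, 5087 and 8678 bases and the 10 kb after that 4699, 4655 and 9113, while the step from 10 to 20 kb held 174, 267 and 649. Adult replicate 3 had the most bases in each of these steps. None of the peaks outside the promoter was among the 7353 strongest of its library, whereas the promoter peak was, ranking 355, 1171 and 163 in the adult lists and 5840 and 5519 in neonatal replicates 2 and 3. Among those strongest peaks the bases of Ugt8a were 0, 679 and 240 against 1353, 1957 and 3604, so that the adult minus neonatal difference of means was 1998 bases, against 34993 over the whole lists. Intergenic peaks were given to Ugt8a because its start was the nearest, and the most distant listed site was chr3:126044621-126045020.

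**Figure D2:**
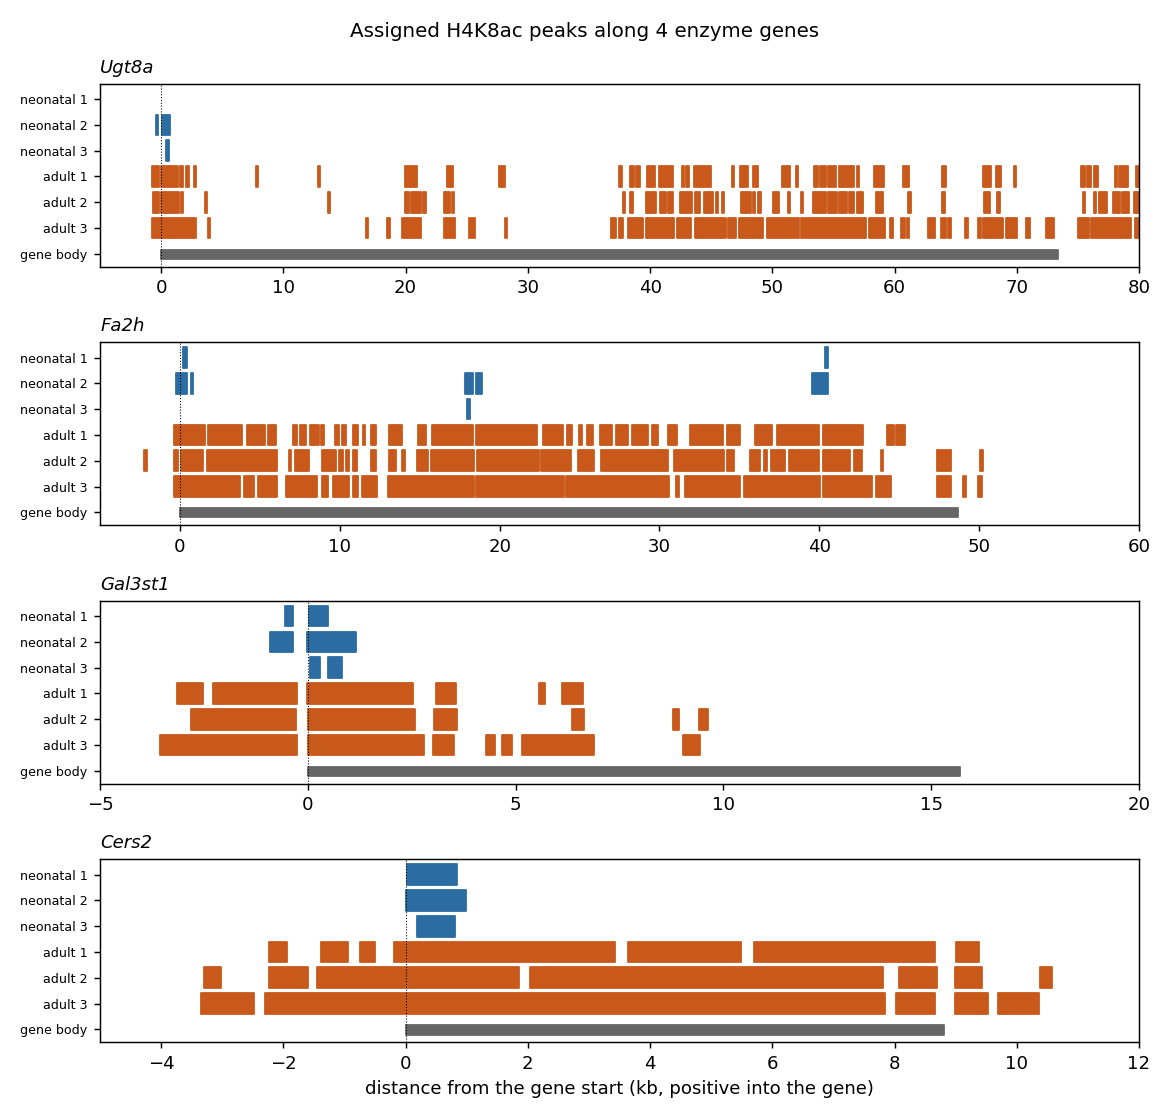
Assigned H4K8ac peaks of Ugt8a, Fa2h, Gal3st1 and Cers2 in the 3 neonatal (blue) and 3 adult (orange) libraries, drawn against distance from the gene start in kb, with the gene body in grey. Peaks of Ugt8a beyond the plotted range are not drawn. Neonatal peaks sat at the gene starts, apart from intronic peaks of Fa2h, while adult peaks spread through Fa2h and Cers2 and over the later part of Ugt8a.

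Gal3st1 (chr11:3983636-3999326, plus strand), the sulfotransferase that makes sulfatide, had among the strongest promoter peaks of the adult lists. Its best peak ranked 94, 60 and 94 in the adult lists and 583, 1020 and 4128 in the neonatal lists, and the authors' fold enrichment was 31.3, 23.5 and 25.4 against 7.53, 12.9 and 4.66. Its peaks covered 647, 1697 and 609 bases in the neonatal and 6351, 6320 and 9251 in the adult libraries. All of these lay at promoters except for 226 bases in an intron in adult replicate 2. A further 5 sites in or within 10000 bp of the gene were given to the neighbouring 4930556J24Rik and Gm11954.

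Sgms1 (chr19:32122727-32389714, minus strand), the sphingomyelin synthase, is the longest of the 9 genes. Its peaks covered 994, 2390 and 596 bases in the neonatal and 9927, 9237 and 13716 in the adult libraries. It had 0, 2 and 0 intronic peaks in the neonatal and 16, 18 and 20 in the adult libraries. The bases lay in separate groups rather than along the whole gene: in adult cells the steps from 50 to 70 kb and from 170 to 210 kb after the start held none, and the step from 160 to 170 kb held 456, 726 and 946. That last step holds the intronic site with the highest log2 fold change of Sgms1, 6.13 in the authors' deposited table (chr19:32225444-32225843). Peaks covered 3.68%, 3.41% and 5.16% of its length in the adult libraries, against 1.9%, 1.75% and 2.48% for the median gene. Among the strongest 7353 peaks of each library its bases were 994, 2067 and 596 against 2707, 2521 and 2658, all at promoters.

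**Figure D3:**
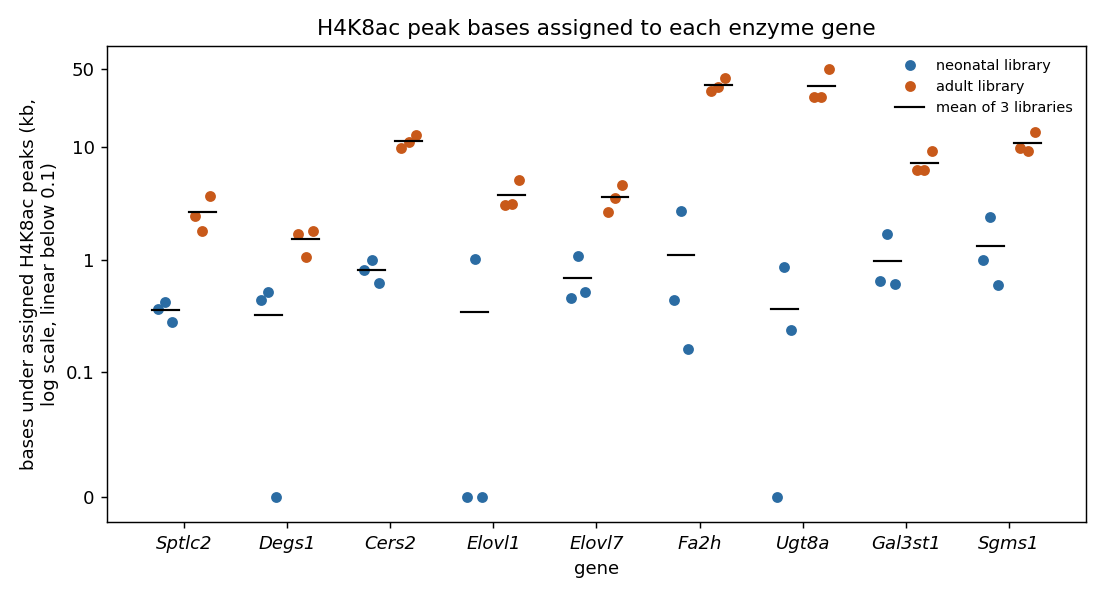
Bases under assigned H4K8ac peaks (kb, log scale that is linear below 0.1) for each of the 9 enzyme genes, with a point for each library and a bar at the mean of 3 libraries. Each adult point lies above all neonatal points of the same gene, from Degs1 (1051 to 1810 bases in adult libraries) to Ugt8a (27947 to 49816).

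All 9 genes had more peak bases in every adult than in every neonatal library. The share was 60.0% of all genes and 65.0% of the 18548 genes with a promoter peak in any library. Among the strongest 7353 peaks the count was 9 of 9 beside 15.9% of all genes. Only 17.3% of all genes had a promoter peak among the strongest in every adult library, as all 9 did. The share among such genes was not computed. The means were 366 ± 443 and 35359 ± 12522 bases for Ugt8a and 1099 ± 1389 and 36015 ± 5017 for Fa2h (SD, n = 3 and 3). Those for Degs1, with the fewest adult bases, were 321 ± 281 and 1523 ± 412. The difference in bases lay at the 99.7 percentile of all genes for both Ugt8a and Fa2h and at the 70.0 percentile for Degs1. These bases are not scaled to gene length and include peaks between genes. The adult mean share of gene length under peaks was 29.5% for Ugt8a, 72.7% for Fa2h and 14.0% for Degs1. Among all genes these lay at the 90.1, 97.3 and 81.6 percentiles. In an exact two-sided permutation test of 3 against 3 libraries each of the 9 genes had p = 0.1, the smallest the design can give, and a Benjamini-Hochberg adjusted p = 0.166 over 23433 genes, so no single gene passed a threshold of 0.05. As 14122 genes shared that smallest p, it does not set these genes apart.

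Set against the larger lists of the adult libraries, only Ugt8a and Fa2h kept this order. The 9 genes summed to 4165, 11678 and 3029 bases in the neonatal and 95801, 99368 and 142569 in the adult libraries, a ratio of geometric means of 21.0, or 31.2 without neonatal replicate 2. The ratio over all genes was 10.6, or 18.3 without that replicate, and among the strongest 7353 peaks it was 8.32 for the 9 genes and 3.997 for all genes. Much of the adult sum lay at 2 of the 9 genes, so the ratio does not describe the 9 alike. Ugt8a had 27947, 28313 and 49816 bases in the adult libraries and Fa2h 31840, 34624 and 41580. The ratio without these 2 genes was not computed. As a share of all bases under peaks in a library, the 9 genes held 0.140%, 0.0851% and 0.130% in the neonatal and 0.229%, 0.224% and 0.234% in the adult libraries. Ugt8a had 0, 62.5 and 103 bases per Mb of all bases under peaks in the neonatal and 668, 640 and 817 in the adult libraries. Fa2h had 149, 196 and 68.6, then 761, 782 and 682. These 2 of 9 genes had a larger share in every adult library, beside 25.2% of all genes, and 0 of 9 had a smaller share in every adult library, beside 14.3%. The mean share of Gal3st1, Elovl7, Degs1, Sptlc2 and Sgms1 was lower in adult libraries, within overlapping ranges; that of Elovl7, for example, was 155, 78.4 and 222 in the neonatal and 64.3, 81.1 and 76.8 bases per Mb in the adult libraries.

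Merging the peaks of all libraries gave 138 regions at the 9 genes. A peak in every adult and no neonatal library was found in 45 of them, or 32.6%, beside 20.4% of all 98027 regions. Of the 45, 21 belonged to Ugt8a, 11 to Sgms1, 5 to Fa2h, 3 to Sptlc2, 2 to Gal3st1 and 1 each to Cers2, Elovl1 and Elovl7. Regions of a single library made up 42.8% of the 138 and 43.8% of all regions. None of the 138 had neonatal peaks alone, as 5.62% of all regions did.

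The authors' deposited table lists only sites with an adjusted p under 0.05. It names no direction, and positive values were read as higher in adult cells because 85.0%, 89.4% and 96.7% of the sites with a positive value overlapped a peak of adult replicates 1, 2 and 3, against 11.7%, 27.8% and 10.3% for the neonatal replicates. In the authors' deposited table all 75 sites of the 9 genes were higher in adult cells and none lower, as were 99.4% of all 43888 sites. In the authors' deposited table each of the 9 genes had at least 1 such site, beside 65.1% of all genes, and each had a promoter site, beside 50.9%. The table comes from the same libraries as the peak lists. Ugt8a had 28 of the 75 sites, Sgms1 14, Fa2h 11, Elovl1 5, Gal3st1, Elovl7 and Sptlc2 4 each, Cers2 3 and Degs1 2.

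At the gene starts, the median log2 fold change of the 9 genes lay near that of other listed genes, while single genes differed. The site nearest to the gene start, within 1000 bp, had, in the authors' deposited table, a log2 fold change of 2.70 for Ugt8a, 2.34 for Fa2h, 2.24 for Elovl1, 1.93 for Gal3st1, 1.69 for Sptlc2, 1.62 for Elovl7, 1.55 for Cers2, 1.53 for Sgms1 and 1.39 for Degs1. Their median was 1.69, against 1.58 over the 10079 genes with such a site in the authors' deposited table, and 6 of the 9 lay above the latter. Ranked among those genes, Ugt8a lay at the 91.8 percentile, Fa2h at 86.8, Elovl1 at 84.9, Gal3st1 at 73.9 and Degs1, the lowest, at 31.3. The adjusted p in the authors' deposited table, which the submitters' processing notes tie to DiffBind, ran from 2.01e-09 for Ugt8a to 0.0066 for Degs1. The 64 sites further than 1000 bp from the gene start had a median of 3.27 in the authors' deposited table, against 2.79 over 32280 such sites of all genes. These sites are spread unevenly over the genes, so that median leans on Ugt8a. By gene, the median of sites outside promoters was 3.48 for Ugt8a (25 sites), 2.46 for Sgms1 (12) and 3.46 for Fa2h (8). It was 2.87 for Elovl7 (3) and 4.13 for Elovl1 (2), against 2.85 over all genes. Gal3st1 and Sptlc2 each had a further site within 1000 bp that is in neither group. The log2 fold changes of these sites were 2.285 and 3.35 in the authors' deposited table. The 61 sites that overlapped no neonatal peak had a median of 3.37, and the 5 that overlapped a peak in all 3 neonatal lists 1.62, with 2.90 and 1.36 over all sites of the authors' deposited table. A higher value where no neonatal peak was called follows in part from that selection.

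**Figure D4:**
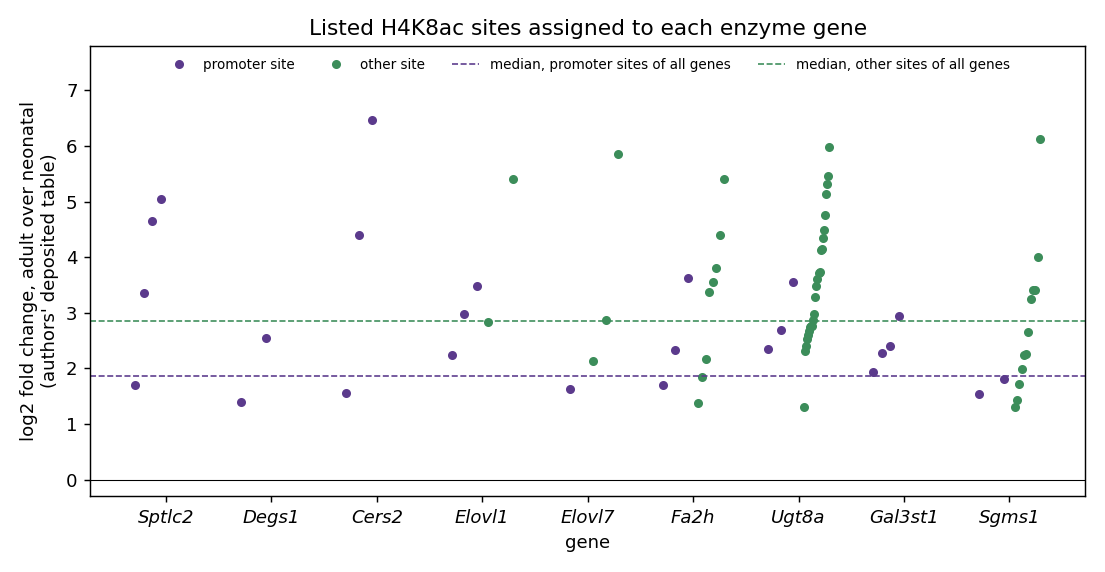
Log2 fold change, adult over neonatal, of each of the 75 sites that the authors' deposited table lists for the 9 enzyme genes, with promoter sites in purple and other sites in green. The dashed lines mark the medians over promoter (1.86) and other (2.85) sites of all genes, and every point lies above 0.

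Other genes of sphingolipid metabolism were counted in the same way. Of 49 such genes (14 of ceramide synthesis, 10 of fatty acid elongation, 8 of transport and head groups, 17 of breakdown), 44 had a peak in any library. A promoter peak was found for 21, 41 and 18 of them in the neonatal and for 42 in each adult library, and among the strongest 7353 peaks for 20, 23 and 18 against 25, 22 and 25. The counts among the strongest peaks overlapped between the ages. Over the whole lists 39 of the 44 with a peak had more bases in every adult library, beside 60.0% of all genes with a peak, and 0 the reverse. Likewise, 39 of the 44 had a site higher in adult cells in the authors' deposited table, beside 65.1% of all genes with a peak, and 0 a site higher in neonatal cells. The leading promoter site of a gene is here its promoter-class site with the lowest p. The median log2 fold change of these sites was 1.78 over 37 pathway genes in the authors' deposited table. It was 2.34 over the 9 enzymes and 1.77 over 12058 genes. For Gal3st1, Cers2, Degs1 and Sptlc2 the leading site was not the one nearest the gene start. At the gene starts the medians were 1.69 for the 9 enzymes and 1.58 over all genes with such a site. Ormdl1 and Ormdl2, which restrain serine palmitoyltransferase, were the 2 with a promoter peak in every adult and no neonatal library. Ormdl1 had 800, 912 and 1172 adult bases and Ormdl2 172, 431 and 235.

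The genes whose bases over the 6 libraries were most like those of Ugt8a were Agpat4, Dock10, Spns2, Kctd3 and Gnao1, by Euclidean distance of log2(bases + 100). The distances ran from 0.582 for Agpat4 to 1.28 for Gnao1. Agpat4 had 0, 1240 and 282 bases in the neonatal and 25030, 28864 and 42654 in the adult libraries, and like Ugt8a it had none in neonatal replicate 1.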

How the data were processed

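Peak lists of 6 H4K8ac libraries and a table of differential sites were analysed. Per the submitters' processing notes, Trim Galore, Bowtie2 2.4.5, SAMtools, deepTools, MACS2, DiffBind and ChIPseeker were used with GRCm38. Their settings are not given in the sources used here. Peaks were deposited per library. Per the file headers, each deposited list gives a score (found to be 10 times −log10 q, rounded down), a fold enrichment (a linear ratio), −log10 of the p-value and of the q-value, the summit's offset, and the gene, class and distance to the nearest start. The authors' table has no header, and its log2 fold change, p-value and adjusted p-value were identified from the deposited values. Each site took the gene and class of the deposited peak sharing most bases with it, and 8 sites shared none.

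Positions are counted from 1. Assigned peaks and their bases were counted per gene and library with Python 3.11.15, numpy 2.4.6 and pandas 2.3.3, over whole lists and over the 7353 strongest peaks of each. Regions merged peaks that shared at least 1 bp. Bases were compared by an exact two-sided permutation test over 20 arrangements, checked on simulated data, with Benjamini-Hochberg adjustment over 23433 genes. The labels call the replicates biological and do not say which animals or sorts they came from. Listed gene spans overlapped those of GRCm38.p6 for 14228 of 14232 genes compared.

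The members and gene lists were chosen with earlier results of these data known. A marker of the mature oligodendrocyte list is not reported here and was left out of its counts and sums. Apart from the markers and neighbouring genes, the genes named are all 9 members, other pathway genes with a promoter peak in every adult and no neonatal library, and the 5 genes most like Ugt8a. Cover of gene length, steps of 10 kb, sites at gene starts and uncovered stretches were measured after the values had been seen. Alternatives were the strongest peaks, a stricter q-value or adjusted p of 0.005, promoters and genes by position, promoters within 1000 bp, shares of covered bases, and leaving out each library.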

Additional observations from a re-analysis of the deposited data

How the results depend on the processing

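The 5 counts and sums over the 9 genes were recomputed under the alternatives that apply to each. Members with a promoter peak differed by 1.67 between the mean adult and mean neonatal library, and by 1.0 to 2.5 with a library left out. Members with a promoter peak in every adult and no neonatal library numbered 0, but 1 (Elovl1) among the strongest peaks, and 0 to 1 with a library left out (1 without neonatal replicate 2). Members with more bases in every adult library numbered 9, also with any library left out, but 2 as a share of covered bases. The ratio of summed bases was 21.0, but 8.32 among the strongest peaks and 1.98 as a share of covered bases, and 15.9 to 31.2 with a library left out. As a share of covered bases the adult minus neonatal difference of mean bases per Mb was negative for Gal3st1 (-52.0), Elovl7 (-77.9), Degs1 (-30.8), Sptlc2 (-37.5) and Sgms1 (-30.9). The divisor, all bases under peaks, is larger in the adult libraries. In the authors' deposited table, each of the 9 members kept a site higher in adult cells at an adjusted p under 0.005, by position within 10000 bp, and with 50% of the site covered by a peak. Of 99 differences of single members over all alternatives, 94 were higher in adult cells. Their p ran from 0.1 to 1.0 over all 99 (exact permutation tests, n = 3 and 3 or fewer, and sign-flip tests for the replicate block). The 99 recompute the same 9 genes and are not independent.

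Same-numbered neonatal and adult libraries did not deviate together from their age means (r across genes -0.0586, 0.0149 and 0.0812). Libraries with different numbers had r from -0.104 to 0.0930. With 3 libraries per age these values cannot tell whether same-numbered libraries were paired, and the labels do not say. With the replicate block, 9 members had more bases in the adult library of all 3 pairs, each with an exact sign-flip p = 0.25, the smallest possible. The reads behind the peaks were not analysed here, so the depth that limits a short list is unknown.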
